A study of Homo sapiens with 39 samples.

Results

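The comparison described here is the difference between 2 human B-lineage cell lines in their response to 24 h of ch128.1Av. It is an interaction: the change from buffer to ch128.1Av in IM-9 minus the same change in U266. Its members are the 8 arrays of 24 h, out of 39 in the series, with 2 arrays each for IM-9 in buffer, IM-9 with ch128.1Av, U266 in buffer and U266 with ch128.1Av. IM-9 is a lymphoblastoid B cell line that carries Epstein-Barr virus, and U266 derives from a multiple myeloma. The labels call IM-9 sensitive and U266 tolerant. ch128.1Av is an antibody fused to avidin that binds transferrin receptor 1, and it was used at 10 nM. Both arms of both lines were cultured alike in 24-well plates, the controls with buffer in its place. Each arm is a single line, so line and sensitivity cannot be told apart. A positive difference means that the change was higher in IM-9, and a negative one that it was lower there. The comparison asks in which genes the sensitive line responded differently from the tolerant one.

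Transferrin receptor 1 carries iron-loaded transferrin into the cell, and cells short of iron stabilise its mRNA while they repress ferritin translation. Iron is needed for DNA synthesis, for iron-sulfur clusters and for oxygen sensing, so proliferating lymphoid cells depend on its uptake. The transcription factor p53 answers DNA damage and other stress by raising genes for cell cycle arrest, DNA repair and cell death.

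Illumina BeadChip arrays gave 20589 probe intensities each, and 9392 to 9658 probes passed detection on the 8 arrays. Levels below are normalized log2 intensities, differences are on the same log2 scale, and a gene was called at an adjusted p under 0.05 in limma over 11538 genes, with the spread pooled over all 39 arrays. Replicates correlated at 0.995 to 0.999 across genes, which are not independent replicates. In bulk RNA, fewer cells of a kind and less RNA per cell cannot be told apart. The labels do not say that replicates were separate cultures, so p values measure only the spread between these arrays, which may be technical. Marker genes went with the names: CD22, FCER2 and EBI3 passed detection in IM-9 and on no U266 array, while SDC1, the plasma cell surface gene, read 13.09 to 13.30 in U266. The B cell markers MS4A1 and PAX5 were not among the genes tested. The ratio of the upper quartile of raw intensity to the fifth percentile, called array brightness here, was 9.24 and 9.29 for IM-9 in buffer but 6.71 and 3.97 after ch128.1Av. On the IM-9 arrays of 0 to 9 h, of both arms, it lay between 4.22 and 6.89. Both IM-9 buffer arrays of 24 h thus stood above every earlier IM-9 array. For U266 at 24 h it was 4.23 and 5.99 with buffer and 5.83 and 5.19 with ch128.1Av. U266 buffer replicate 1 stood apart from replicate 2 in several genes given below.

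The response to ch128.1Av differed between the lines in 562 genes (4.87% of those tested), 275 with a positive (2.38%) and 287 with a negative difference (2.49%). The IM-9 side made up most of them. Among the 275 positive genes, 246 were also called higher in IM-9, where 710 genes were called higher in all (6.15%). Of the 287 negative genes, 264 were called lower in IM-9, where 834 were called lower (7.23%). These counts share the IM-9 arrays and are given as a description. In U266 limma called 2 genes (0.0173%), TFRC higher (0.00867%) and TJP1 lower (0.00867%), while 817 had an unadjusted p under 0.05. Without U266 buffer replicate 2 the U266 count was 415, and without buffer replicate 1 or treated replicate 2 it was 0, TFRC included.

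Sizes were moderate. Positive differences ran from 0.12 to 1.94 with a median of 0.47, where IM-9 had a median change of 0.41 and U266 of -0.05. Negative differences had a median of -0.44, from -0.36 in IM-9 and 0.07 in U266. At least 1 log2 unit was reached by 12 positive and 0 negative called genes, and at least 0.5 by 125 and 111. The change was larger in IM-9 in 252 of the positive and 271 of the negative genes. In U266, 48 of the positive genes (17.5%) and 36 of the negative genes (12.5%) did not pass detection on any of the 4 arrays, beside 1611 of all 11538 genes tested. In those genes a U266 change could not be measured, and the difference is the IM-9 change. Statements below that treated and control arrays did not overlap are to be read against all genes tested, of which 23.2% in IM-9 had both treated arrays above both controls and 24.9% below, and 19.7% and 17.9% in U266.

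**Figure D1:**
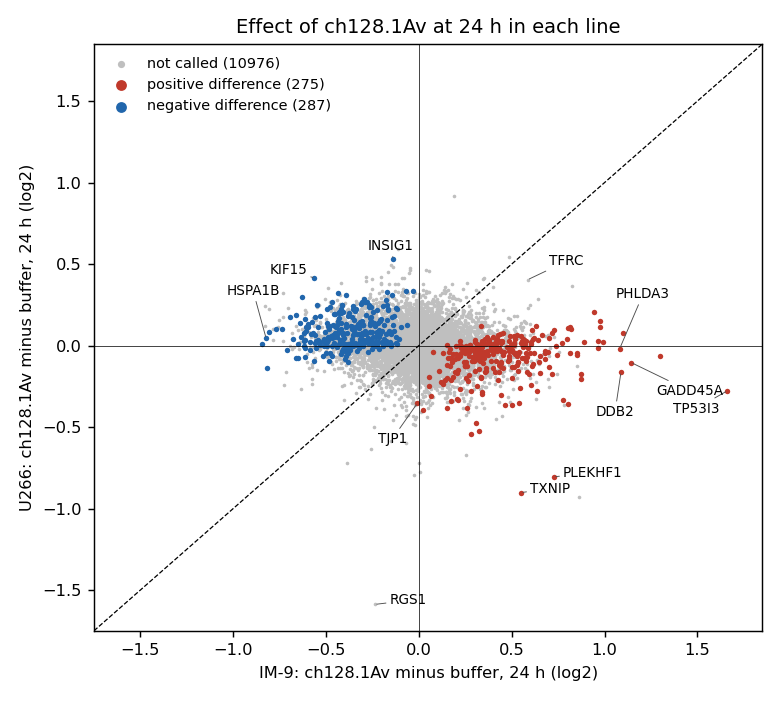
Each point is 1 of 11538 genes, with the log2 change from buffer to ch128.1Av at 24 h in IM-9 on the horizontal and in U266 on the vertical axis (means of 2 arrays each); the dashed line marks equal changes. The 275 positive (red) and 287 negative (blue) called genes lie mostly along the horizontal axis, whereas TXNIP, PLEKHF1 and RGS1 also lie far down the vertical axis.

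The counts moved with single arrays. Without IM-9 buffer replicate 1 or 2 there were 379 and 83 positive calls and 385 and 107 negative ones. Without IM-9 treated replicate 1 they were 758 and 865, and without replicate 2 only 97 and 89. Leaving out U266 buffer replicate 1 or 2 gave 120 and 431 positive and 114 and 416 negative calls. Without U266 treated replicate 1 or 2 there were 124 and 120 positive and 117 and 129 negative calls. In 63 of the 275 positive and 66 of the 287 negative genes the call held through all 8 omissions. Lost calls were counted for 77 of the called genes named below. Omitting IM-9 treated replicate 2, IM-9 buffer replicate 2 or U266 buffer replicate 1 ended the most of them.

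Of the 26 gene lists examined, genes activated by p53 held the largest share of calls. Of 27 such genes tested, 12 had a positive difference and 0 a negative one, against 2.38% and 2.49% of all genes, and the median difference was 0.35 beside -0.002 over all genes. In IM-9 21 of the 27 were called higher and 0 lower, and in U266 0 were called in either direction. The calls fell in each role: 4 of 8 genes of arrest and growth control, 3 of 5 of DNA repair and nucleotide supply, 4 of 9 of redox and cell death, and 1 of 5 regulators of p53. For every list below, the shares of all genes to set beside its counts are 2.38% positive and 2.49% negative, and 6.15% higher and 7.23% lower in IM-9. The list was chosen with results of these data known and is not independent evidence of its direction.

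TP53I3, a p53-induced oxidoreductase of the quinone reductase type, had the largest called difference of any gene tested. It read 9.74 and 9.55 on the IM-9 buffer arrays, 11.10 and 11.51 on the treated ones, 9.91 and 9.82 in U266 with buffer and 9.66 and 9.51 with ch128.1Av. The IM-9 treated arrays were above all 6 others, and both U266 treated arrays were a little below their controls. The difference was 1.94 (SE 0.143, limma adjusted p = 1.55e-08, n = 2 per group), with 3.16-fold higher levels in IM-9 and a U266 change of -0.28 that was not called (adjusted p = 0.429).

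GADD45A, a growth arrest gene induced by DNA damage, read 9.16 and 8.91 in IM-9 with buffer and 10.15 and 10.20 with ch128.1Av. In U266 it read 8.54 and 8.52, then 8.39 and 8.47. The groups did not overlap in IM-9, and in U266 both treated arrays were slightly below their controls. Its difference was 1.25 (SE 0.173, limma adjusted p = 0.000151). DDB2, which recognises ultraviolet damage for nucleotide excision repair, differed by 1.25 as well (SE 0.172, limma adjusted p = 0.00013). Its IM-9 arrays read 8.63 and 8.60 with buffer and 9.37 and 10.04 with ch128.1Av, so the treated replicates lay far apart, and without either of them the difference ran down to 0.92 or up to 1.59. In U266 DDB2 read 8.37 and 8.41 with buffer and 8.23 and 8.21 with treatment, a separation in the opposite direction that was not called (adjusted p = 0.884).

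PHLDA3, an inhibitor of AKT, read 8.98 and 9.16 in IM-9 with buffer and 10.03 and 10.27 with ch128.1Av. All 4 U266 arrays lay between 7.70 and 7.74 and none passed detection, so the difference of 1.10 (SE 0.116, limma adjusted p = 3.55e-06) is the IM-9 change alone. CDKN1A, the cell cycle inhibitor p21, read 12.79 and 12.66 in IM-9 with buffer and 13.68 and 13.66 with treatment. In U266 it read 10.31 and 10.46, then 10.61 and 10.56, and passed detection on 1 of 4 arrays in spite of these levels. Treated arrays were above the controls in both lines, and the difference of 0.74 passed (SE 0.12, limma adjusted p = 0.000699), while the U266 change of 0.20 did not (adjusted p = 0.565).

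Further p53 genes, named after their values were seen, were smaller. TP53INP1, a cofactor that promotes p53 activity, differed by 0.90 (adjusted p = 0.000508) and GDF15, a secreted stress factor, by 0.31 (adjusted p = 0.00108). GDF15 passed detection in IM-9 on the 2 treated arrays alone, so that its rise there was at least 1.24-fold. TP53I3, GADD45A, DDB2, PHLDA3, CDKN1A, TP53INP1 and GDF15 kept their calls through all 8 omissions. The death receptor genes FAS and TNFRSF10B differed by 0.65 and 0.35 (adjusted p = 0.0161 and 0.0225). EI24 differed by 0.51, the glycolytic regulator TIGAR by 0.55 and the repair gene XPC by 0.35 (adjusted p = 0.0155, 0.0271 and 0.0439). Their calls were each lost in 4 to 7 of the 8 omissions, among them those of IM-9 buffer replicate 2 or U266 treated replicate 1, with an adjusted p of up to 0.159. MDM2, the ubiquitin ligase that degrades p53, was at 0.16 (SE 0.0465, limma adjusted p = 0.0501), just short of the threshold, and its U266 arrays did not pass detection. The pro-death genes BAX (0.29, adjusted p = 0.221) and BBC3 (0.11, adjusted p = 0.548) were not called. The list held 8 calls without IM-9 buffer replicate 2 and 8 without U266 buffer replicate 1. Of the 12 calls, 10 remained once brightness was a covariate, and 1 with equal medians.

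**Figure D2:**
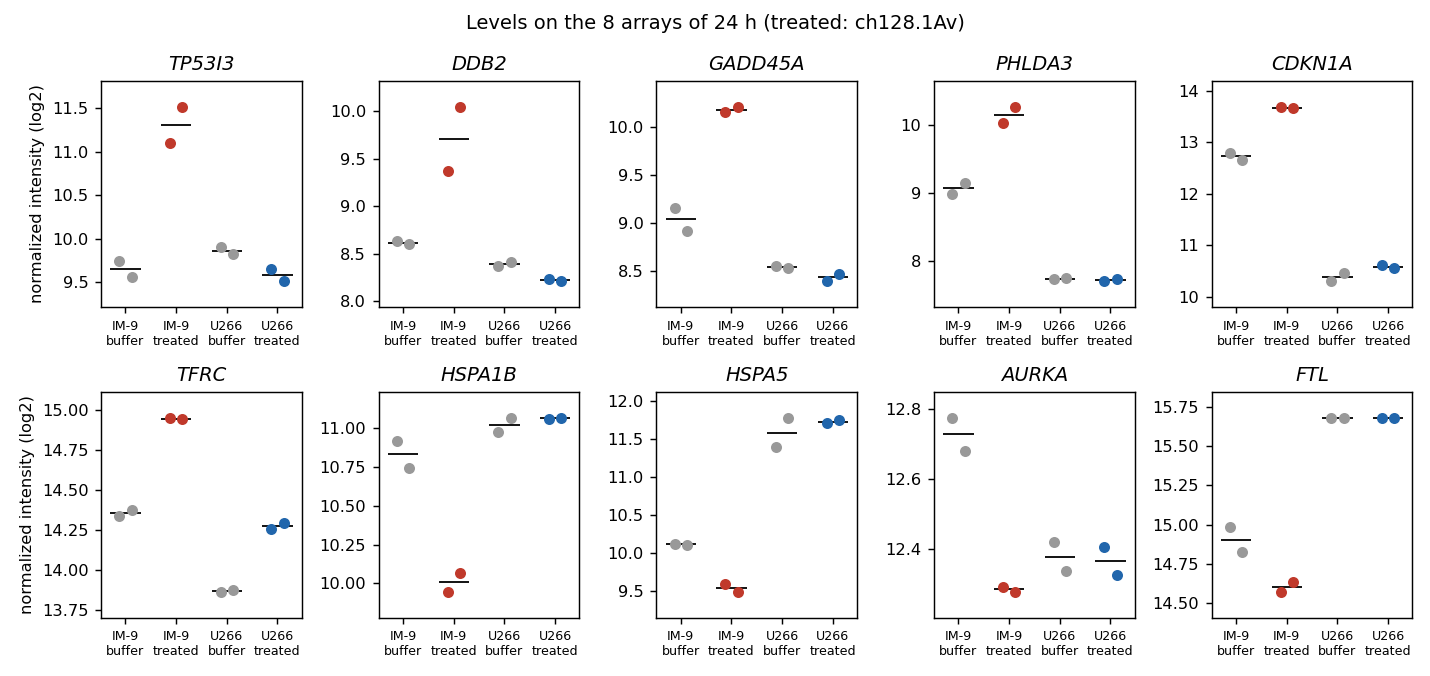
Normalized log2 intensity of 10 genes on the 8 arrays of 24 h; points are arrays, lines the mean of 2, grey buffer, red ch128.1Av in IM-9 and blue ch128.1Av in U266, with a separate vertical scale for each gene. The p53 genes of the upper row separate in IM-9 (TP53I3 at 11.10 and 11.51 against 9.74 and 9.55), TFRC is higher with treatment in both lines, and FTL holds 1 value on all U266 arrays.

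The listed iron genes showed line differences in both directions. TFRC, the receptor's own gene, was the only one called in the same direction in both lines. It read 14.34 and 14.38 in IM-9 with buffer, 14.95 and 14.94 with ch128.1Av, 13.87 and 13.88 in U266 with buffer and 14.25 and 14.30 with treatment. Treated and control arrays did not overlap in either line. The changes were 0.59 in IM-9 and 0.40 in U266, and their difference of 0.18 did not pass (SE 0.077, limma adjusted p = 0.169). Across the 8 omissions it ran from 0.16 to 0.20 and was never called.

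Of 14 genes of iron uptake, storage and sensing, 1 had a positive (7.14%) and 2 a negative difference (14.3%), and the median was -0.003. The shares of all genes were 2.38% and 2.49%. FTL, the ferritin light chain that stores iron, was at -0.30 (SE 0.058, limma adjusted p = 0.00369). In IM-9 it read 14.98 and 14.82 with buffer and 14.57 and 14.63 with ch128.1Av, so the treated arrays were lower. On all 4 U266 arrays FTL was the brightest of 20589 probes, and quantile normalization gives the brightest probe the same value, here 15.68, so that no U266 change in FTL could appear. Its raw U266 intensities were 53128 and 57324 with buffer and 52726 and 56170 with treatment, which overlapped. With arrays scaled to equal medians the difference turned to 0.15 and was not called (adjusted p = 0.845). SLC11A2, the iron transporter DMT1, was at -0.50 (adjusted p = 0.0435), with -0.17 in IM-9 and 0.33 in U266, neither of them called. PCBP2, an iron chaperone that delivers iron to ferritin, was at 0.38 (adjusted p = 0.046). Both calls were lost in 5 of 8 omissions, with adjusted p values of up to 0.27 and 0.29, the omissions of IM-9 buffer replicate 2 and U266 buffer replicate 1 among them. STEAP3, the endosomal ferrireductase, was at -0.26 and not called (adjusted p = 0.126).

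Among 19 genes of iron-sulfur cluster and heme synthesis, 1 was positive and 1 negative. Outside both iron lists, the metalloreductase gene STEAP1 and CIAPIN1, of the cytosolic iron-sulfur machinery, were called negative. Both were named after their values were seen. STEAP1 kept its call in 8 of 8 omissions and CIAPIN1 in 3. ISCU, the scaffold on which iron-sulfur clusters are built, read 11.46 and 11.40 in IM-9 with buffer and 11.86 and 12.04 with ch128.1Av, and 11.64 to 11.73 on all U266 arrays. Its difference was 0.57 (SE 0.119, limma adjusted p = 0.00716), lost only without IM-9 treated replicate 2 (adjusted p = 0.0681). CIAO1, of the cytosolic assembly machinery, was at -0.46 (adjusted p = 0.0496), a call lost in 7 of 8 omissions.

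Of 21 heat shock genes tested, 3 had a negative difference and 0 a positive one, beside 2.49% and 2.38% of all genes, with a median of -0.16. All 3 were among the 10 genes of HSP70 and HSP40 chaperones, and of 11 listed HSP90, HSP110 and chaperonin genes and regulators 0 passed. Outside the list, the chaperonin subunits CCT4 and CCT2 and the mitochondrial HSP70 HSPA9, named after their values were seen, were called negative. CCT4 kept its call in 3, CCT2 in 1 and HSPA9 in 4 of 8 omissions. In IM-9 9 of the 21 were called lower, against 7.23% of all genes, and in U266 0 were called. HSPA1B, an inducible HSP70 whose sequence is nearly identical to that of HSPA1A so that both may be read by 1 probe, was at 10.91 and 10.74 in IM-9 with buffer and 9.95 and 10.07 with ch128.1Av. In U266 it read 10.97 and 11.06, then 11.06 and 11.07. The IM-9 treated arrays were below all 6 others, which lay close together, and the difference was -0.87 (SE 0.113, limma adjusted p = 7.24e-05). DNAJB1, the HSP40 partner of HSP70, read 9.96 and 9.97 in IM-9 with buffer and 9.36 and 9.40 with treatment, and 11.07 to 11.26 in U266. It was at -0.65 (SE 0.0885, limma adjusted p = 0.000112). HSPA8, the constitutive HSP70, was at -0.41 (adjusted p = 0.0207), lost in 5 of 8 omissions (adjusted p up to 0.131), whereas the calls of HSPA1B and DNAJB1 held in all.

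Heat shock genes are bound by HSF1 at inverted repeats of GAA, and the reference promoters of HSPA1B and HSPA8, the called members of the list that hold such repeats, are shown. Both are the 250 bases before the transcription start, 5′ to 3′ on the gene's strand, from RefSeq on GRCh38.p14, at chr6:31827488-31827737 on the plus strand for HSPA1B and chr11:123062137-123062386 on the minus strand for HSPA8. Capitals mark GAANNTTC or TTCNNGAA, which each read the same on both strands and can overlap.
HSPA1B: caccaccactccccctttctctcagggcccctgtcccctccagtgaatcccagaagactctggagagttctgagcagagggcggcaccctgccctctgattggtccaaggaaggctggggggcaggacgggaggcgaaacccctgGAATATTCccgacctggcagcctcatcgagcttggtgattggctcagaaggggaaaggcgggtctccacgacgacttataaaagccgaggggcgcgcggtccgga
HSPA8: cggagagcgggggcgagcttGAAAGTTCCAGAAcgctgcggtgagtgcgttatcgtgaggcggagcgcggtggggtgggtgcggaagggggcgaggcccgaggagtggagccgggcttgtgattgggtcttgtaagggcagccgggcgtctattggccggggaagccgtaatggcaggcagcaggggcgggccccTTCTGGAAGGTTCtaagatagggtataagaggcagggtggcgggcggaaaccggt
HSPA1B held 1 match and HSPA8 held 4. GAANNTTC stood in 7 of the 19 promoters of the list that the reference table held, against 4.27% of the 8666 promoters of genes tested, and TTCNNGAA in 3 of 19 against 5.29%. Of the 3 called genes 2 held the first and 1 the second, and DNAJB1 held neither in this window. Matches are a description of these letters and not of binding.

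In the endoplasmic reticulum an HSP70 and an HSP90 chaperone gave differences of opposite sign. HSPA5, the lumenal HSP70 BiP, read 10.13 and 10.11 in IM-9 with buffer and 9.59 and 9.50 with ch128.1Av. In U266 it read 11.39 and 11.78, then 11.71 and 11.75. The IM-9 arrays separated downwards and the U266 arrays overlapped, and the difference was -0.72 (SE 0.113, limma adjusted p = 0.000548) and held through all 8 omissions. HSP90B1, the lumenal HSP90 GRP94, was at 0.37 (adjusted p = 0.0205), with IM-9 levels of 13.74 and 13.78 against 14.09 and 14.31, a call lost in 4 omissions. These were the only calls among 20 genes of the unfolded protein response, whose median was -0.04. Of 26 genes driven by ATF4 in the integrated stress response, 2 were positive and 1 negative. The stress transcription factor ATF5 was at 0.47 (adjusted p = 0.0119) and CEBPG at -0.38 (adjusted p = 0.0104), and their calls were lost in 2 and 3 omissions, both without U266 buffer replicate 1. DDIT3, the factor CHOP, was at 0.37 and not called (adjusted p = 0.0836).

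Of 36 genes of G2/M and mitosis, 5 had a called negative difference and 0 a positive one, against 2.49% and 2.38% of all genes. The median was -0.26 and 7 of the 36 were above 0. In IM-9 13 were called lower, against 7.23% of all genes. AURKA, the spindle pole kinase, read 12.78 and 12.68 in IM-9 with buffer, 12.29 and 12.28 with ch128.1Av, 12.42 and 12.34 in U266 with buffer and 12.41 and 12.33 with treatment. In IM-9 the groups did not overlap and in U266 they did. The difference was -0.43 (SE 0.0794, limma adjusted p = 0.00262) and held in all 8 omissions. KIF11, the kinesin that separates spindle poles, was at -0.71 (SE 0.162, adjusted p = 0.0116), from -0.48 in IM-9 and 0.23 in U266. AURKB, the chromosomal passenger kinase, was at -0.42 (adjusted p = 0.0172) and PRC1, which bundles midzone microtubules, at -0.36 (adjusted p = 0.0233). PTTG1, the separase inhibitor securin, named after its values were seen, was at -0.56 (adjusted p = 0.0299). These 4 calls were lost in 4 or 5 of the omissions, all of them without IM-9 buffer replicate 2, IM-9 treated replicate 2 and U266 buffer replicate 1, with adjusted p values of 0.114 to 0.207. Without IM-9 treated replicate 2 or U266 buffer replicate 1 the list held 1 call. With brightness as a covariate 1 of the 5 calls, AURKA, remained, and with equal medians 0. The median ran from -0.46 with equal medians to -0.20 with brightness as a covariate.

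Outside the list the mitotic kinesin KIF15 had the largest negative difference of any called gene with a name. It read 10.56 and 10.84 in IM-9 with buffer and 10.47 and 9.81 with ch128.1Av, and 9.49 and 9.72, then 10.02 and 10.01 in U266. Treated arrays were below the controls in IM-9 and above them in U266. The difference was -0.98 (SE 0.246, adjusted p = 0.0225), lost in 5 of 8 omissions. CCNF, the cyclin that restrains centrosome duplication, was at -0.93 (adjusted p = 0.00799), lost without IM-9 buffer replicate 2 or treated replicate 2 (adjusted p up to 0.0842). Of 33 genes of G1/S and DNA replication, 2 were positive and 1 negative. The replicative helicase subunit MCM6 was at -0.57 (adjusted p = 0.0328) and TYMS, which makes thymidylate, at 0.22 (adjusted p = 0.044), both lost in at least 5 omissions. The second positive member failed detection on all 8 arrays.

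Many mitotic promoters carry a CCAAT box upstream of a cell cycle genes homology region, and KIF11 and PRC1 are shown as called members that hold both. Their 250 bases before the start, from RefSeq on GRCh38.p14, are chr10:92592880-92593129 on the plus and chr15:90994536-90994785 on the minus strand, with CCAAT and TTTGAA on either strand in capitals.
KIF11: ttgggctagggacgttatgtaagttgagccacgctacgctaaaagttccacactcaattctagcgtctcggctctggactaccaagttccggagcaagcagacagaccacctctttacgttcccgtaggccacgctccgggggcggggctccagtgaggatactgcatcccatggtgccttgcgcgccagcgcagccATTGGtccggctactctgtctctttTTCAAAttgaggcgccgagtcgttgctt
PRC1: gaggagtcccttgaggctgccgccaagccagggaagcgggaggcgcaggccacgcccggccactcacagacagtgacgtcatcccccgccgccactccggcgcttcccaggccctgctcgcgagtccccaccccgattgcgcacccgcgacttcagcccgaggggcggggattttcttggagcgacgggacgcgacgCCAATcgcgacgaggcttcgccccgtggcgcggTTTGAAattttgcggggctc
TTTGAA stood in 14 of 30 promoters of the list against 8.86% of promoters of genes tested, and CCAAT in 24 of 30 against 36.4%. Among all genes with a called negative difference the shares were 15.5% and 42.1%. Of the 4 called members with a promoter in the table, 2 held the first and 4 the second. Of the other motifs searched, a p53 core motif, CATG on both sides of a spacer of 6 bases, stood in 0 of 22 promoters of the p53 list and 0 of 8 called ones, against 0.127% of those tested. With a share that low, 0 in so few promoters tells nothing about p53 sites, and only 250 bases before the start were searched. The hypoxia core ACGTG stood in 17 of 31 promoters of the hypoxia list and 1 of 3 called ones, against 24.0%.

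Of 31 genes of the MYC network and ribosome assembly 3 were negative and 0 positive, against 2.49% and 2.38% of all genes, and 12 were above 0 (median -0.07). RRP15, which acts in large ribosomal subunit assembly, was at -0.85 (adjusted p = 0.01), WDR12 at -0.39 (adjusted p = 0.00752) and POLR1C, a subunit of RNA polymerases I and III, at -0.36 (adjusted p = 0.0225). Each lost its call in 2 or 4 omissions, among them IM-9 treated replicate 2. MYC itself was at 0.06 and not called (adjusted p = 0.742). Among 21 listed genes of tRNA charging and translation factors 3 were negative and 0 positive. Genes of these functions outside both lists, named after their values were seen, were called in both directions. Positive calls included the ribosomal proteins RPL8 (0.50) and RPL37 (0.27) and the initiation factors EIF1 (0.38) and EIF3H (0.33). The seryl-tRNA synthetase SARS1 (0.23), which is counted with the ATF4 genes, was positive too. Negative calls included the ribosomal proteins RPL28 and RPL41 and the initiation factor subunit EIF3K. Also negative were the ribosome assembly genes NOL6, HEATR1, RRP1B, LTV1, WDR36 and RIOK1. Of these genes outside both lists, RPL37, EIF3K, LTV1, WDR36 and RIOK1 kept their calls in 8 of 8 omissions. The others kept theirs in at most 5. The arginyl-tRNA synthetase gene RARS1 read 13.19 and 13.31 in IM-9 with buffer and 12.91 and 12.87 with ch128.1Av, and in U266 12.73 and 12.75, then 12.90 and 12.94. Treated arrays were below the controls in IM-9 and above them in U266, with no overlap in either, though the U266 change was not called. The difference was -0.54 (SE 0.105, limma adjusted p = 0.00423). EIF2S2, a subunit of initiation factor eIF2, was at -0.39 (adjusted p = 0.0115), lost in 3 omissions.

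Of 30 proteasome genes 3 were negative and 0 positive, against 2.49% and 2.38% of all genes, with a median of -0.16. In IM-9 8 were called lower, against 7.23% of all genes. PSMA3, a core subunit, read 13.36 and 13.37 in IM-9 with buffer and 12.94 and 13.00 with treatment, and in U266 11.77 and 11.92, then 11.97 and 11.98. Treated and control arrays did not overlap in IM-9, nor by a small margin in U266, where the change was not called. The difference was -0.52 (SE 0.0752, limma adjusted p = 0.000208). PSME3, an activator cap, was at -0.58 (adjusted p = 0.0029), and both calls held through all 8 omissions. Among 28 listed respiratory chain subunits 2 were negative, both of complex I, with NDUFS8 at -0.37 (adjusted p = 0.0225), lost in 4 omissions. The list median was -0.02 and turned to 0.02 with brightness as a covariate. Complex I subunits outside the list, named after their values were seen, were called in both directions, NDUFA13 at 0.63, NDUFA10 at 0.46 and NDUFA3 at -0.23. They kept their calls in 3, 4 and 2 of 8 omissions. RPS6KB1, the S6 kinase of growth signalling, was at -0.84 (adjusted p = 0.0195) and ENOPH1, of the methionine salvage pathway, at -0.87 (adjusted p = 0.0102), lost in 5 and 3 omissions.

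Among 24 interferon-stimulated genes 4 were positive and 0 negative, against 2.38% and 2.49% of all genes, with a median of 0.18. Immune genes outside the lists, named after their values were seen, were called in both directions. Negative calls included TRIM21 (-0.65), the adaptor MYD88 (-0.46), IL16 (-0.33, limma adjusted p = 0.000616), UBD (-0.24) and CKLF (-0.22). Positive calls included APOBEC3H, PARP10, UBA7 and IRAK2. Of these genes outside the lists, IL16, APOBEC3H and PARP10 kept their calls in 8 of 8 omissions. The others kept theirs in at most 6, MYD88 in 3. APOBEC3G, a cytidine deaminase that restricts retroviruses, read 9.16 and 8.99 in IM-9 with buffer and 10.01 and 10.12 with ch128.1Av, while all U266 arrays lay between 7.75 and 7.78 and failed detection. Its difference of 0.97 (SE 0.0743, limma adjusted p = 1.55e-08) is thus the IM-9 change. TRIM22, an antiviral ubiquitin ligase, was at 0.57 (adjusted p = 0.000685), also with no U266 array past detection. HERC5, the ligase for ISG15, was at 0.49 (adjusted p = 0.00617) and IFI35 at 0.51 (adjusted p = 0.0128), with calls lost in 2 and 3 omissions (IM-9 buffer replicate 2 and treated replicate 2 in both).

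Of 30 chemokine and cytokine genes 8 were positive and 0 negative, 5 of them among 12 chemokines and their receptors. CCR7, the lymph node homing receptor, read 12.62 and 12.61 in IM-9 with buffer and 13.17 and 13.23 with ch128.1Av, with all U266 arrays at 7.69 to 7.78 and below detection. The difference was 0.61 (SE 0.0473, limma adjusted p = 1.59e-08), again the IM-9 change. CXCL10, a chemokine for T cells, was at 0.32 (adjusted p = 0.00695) and SOCS1, a feedback inhibitor of cytokine signalling, at 0.55 (adjusted p = 0.00562), both below detection in U266. CCL3L3 was at 1.03 (adjusted p = 0.00316) and CCL3 at 0.72 (adjusted p = 0.00556). CCL3 and CCL3L3 are near-identical copies whose probes may read each other's transcripts. In U266 they were among the 42 brightest probes on each array, where quantile normalization leaves little room for change. CCL3 lost its call without IM-9 buffer replicate 2 (adjusted p = 0.0549), while the other 4 kept theirs throughout.

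Of 26 NF-kB targets 5 were positive and 0 negative. TNFAIP3, the inhibitor A20, read 11.48 and 11.27 in IM-9 with buffer and 11.72 and 11.64 with treatment, and 11.65 and 11.42, then 11.07 and 11.04 in U266. It was a little higher in IM-9 and lower in U266, neither change being called, and the difference of 0.78 was (SE 0.185, limma adjusted p = 0.0157). The call was lost without IM-9 buffer replicate 2, U266 buffer replicate 1 or U266 treated replicate 2 (adjusted p up to 0.104). Among 20 immediate early genes 3 were positive. DUSP4, a phosphatase of MAP kinases, was at 0.58 (adjusted p = 0.000156) with no U266 array past detection, and IER5 at 0.80 (adjusted p = 0.00799), lost in 3 omissions. The medians of the NF-kB and immediate early lists, 0.18 and 0.17, turned to -0.02 and -0.01 with equal medians, where the median of all genes moved to -0.08. Without IM-9 buffer replicate 2 the interferon, NF-kB and chemokine lists held 2, 2 and 4 positive calls.

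MHC genes had 5 positive and 1 negative of 23. TAP1, the peptide transporter of class I presentation, read 12.86 and 12.72 in IM-9 with buffer and 13.17 and 13.24 with ch128.1Av, and 13.32 to 13.46 on the U266 arrays, which overlapped. Its difference was 0.45 (SE 0.0668, limma adjusted p = 0.000279) and held through all omissions. The class II genes HLA-DQB1 (0.65, adjusted p = 0.0195) and HLA-DPB1 (-0.38, adjusted p = 0.0132) went in opposite directions. Without IM-9 buffer replicate 2 or treated replicate 2 the list held 1 positive call. Both calls were lost in 5 and 3 omissions, IM-9 buffer replicate 2 and treated replicate 2 among them. CR2, the complement receptor CD21 of mature B cells, read 10.26 and 10.42 in IM-9 with buffer and 9.85 and 9.40 with treatment and failed detection in U266. It was at -0.68 (adjusted p = 0.00349), 1 of 2 calls among 24 B cell genes beside ID3 at 0.77 (adjusted p = 0.00957, lost in 3 omissions). PRDM1, the master regulator of plasma cells, was at 0.76 (adjusted p = 0.0461, lost in 6 omissions) and the only call among 19 plasma cell genes. It read 9.02 and 9.51 in IM-9 with buffer, 10.06 on both treated arrays, and 11.65 to 11.76 in U266. IRF4 was at 0.36 and not called (adjusted p = 0.073).

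Of 27 BCL2 family and caspase genes 2 were positive. CFLAR, which blocks caspase-8 activation, was at 0.59 (SE 0.117, limma adjusted p = 0.00434), with IM-9 levels of 10.76 and 10.63 against 11.05 and 11.39 and U266 levels of 11.28 to 11.40. Among 35 hypoxia genes 3 were positive, all of glycolysis, with PFKFB3 at 0.64 (adjusted p = 0.0169) and ALDOA at 0.45 (adjusted p = 0.0321), lost in 3 and 6 omissions. The hypoxia list's median was -0.02, with medians of 0.10 in IM-9 and 0.14 in U266. BNIP3, a mitophagy receptor, was at -0.06 and not called (adjusted p = 0.911), with 0.49 in IM-9 and 0.54 in U266. Of 19 cholesterol genes 2 were negative. HMGCS1, an early enzyme of sterol synthesis, was at -0.55 (adjusted p = 0.00507), called in all omissions, and INSIG1, the sterol sensor, at -0.67 (adjusted p = 0.0362), lost in 5. Of 19 redox genes 2 were positive, namely TXNIP, described next, and the metallothionein MT2A at 0.60 (adjusted p = 0.00532), lost without IM-9 buffer replicate 2 or treated replicate 2 (adjusted p up to 0.0549). Among 32 listed lysosome and autophagy genes limma called 0. Genes of the same functions outside the list, named after their values were seen, were called positive: CD63 (0.83), PSAP (0.57), LAMP3 (0.42), ATG16L2 (0.41), ATP6AP1 (0.40) and ATP6V0B (0.37). Of 21 listed histone and chromatin genes 1 was called, H2AZ1 at -0.36 (adjusted p = 0.0423, lost in 6 omissions). Histone genes outside the list, likewise named afterwards and with near-identical copies that a probe may not tell apart, were called negative: H2BC9 (-0.56), H2AC20 (-0.47), H3C12 (-0.29) and H3C3 (-0.14). The calls of LAMP3, H2AC20 and H3C12 held in 8 of 8 omissions. PSAP kept its call in 1, ATP6AP1 and H2BC9 in 2, CD63 and ATG16L2 in 3, and ATP6V0B and H3C3 in 4.

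Markers of other cell types gave 1 positive and 1 negative call among 11 tested. VIM, an intermediate filament gene that both lines express, was at 0.32 (adjusted p = 0.0461), and NKG7, of cytotoxic cells, at -0.18 (adjusted p = 0.0234) with IM-9 levels of 7.91 to 8.08 near background. Both calls were lost in at least 6 omissions. Except for VIM, group means of the list lay between 7.68 and 8.34. Of the 11, 5 did not pass detection on any U266 array and 5 on any IM-9 array.

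**Figure D3:**
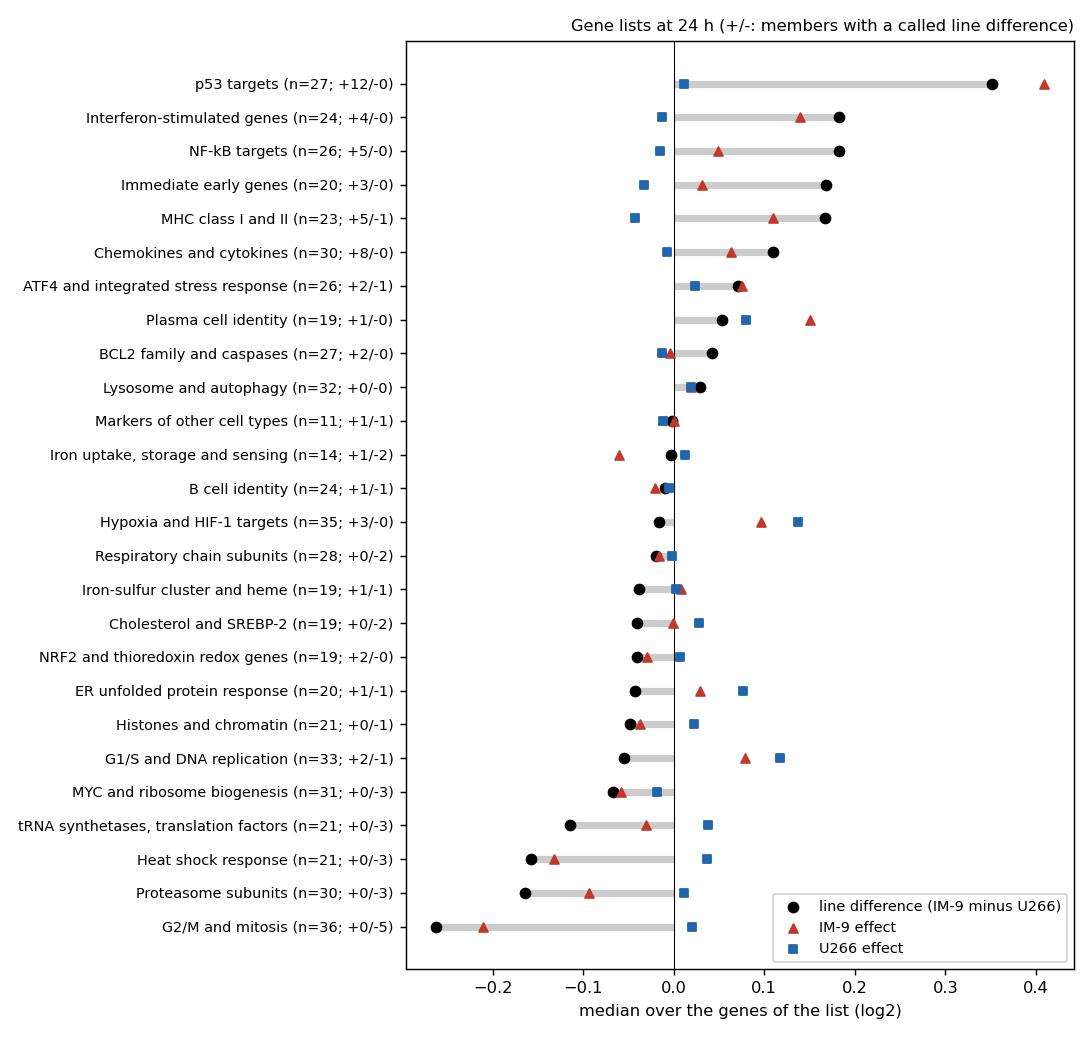
For each of 26 gene lists the median over its tested genes of the line difference (black), the IM-9 change (red) and the U266 change (blue), on a log2 scale, with the number tested and the numbers called positive and negative. p53 targets lie highest (0.35, 12 of 27 positive) and G2/M genes lowest (-0.26, 5 of 36 negative), and U266 medians stay close to 0 except for lists such as hypoxia (0.14).

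In a minority of genes U266 carried the difference. The change was larger in U266 in 23 of the 275 positive and 16 of the 287 negative genes. TJP1, the tight junction scaffold ZO-1, was the only gene called both for the difference and in U266. It read 9.44 and 9.40 in U266 with buffer and 9.12 and 9.02 with ch128.1Av, and 7.75 to 7.78 in IM-9 without passing detection. The difference of 0.35 (SE 0.0841, limma adjusted p = 0.0188) is thus the U266 change, and it was lost in 4 omissions (adjusted p up to 0.0983).

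INSIG1 and TNFAIP3 also separated on all 4 U266 arrays, with U266 changes of 0.53 and -0.48 that were not called (adjusted p = 0.203 and 0.225). In several genes with large U266 changes, U266 buffer replicate 1 lay above the other 3 U266 arrays. TXNIP, an inhibitor of thioredoxin and of glucose uptake, read 12.16 on U266 buffer replicate 1, 10.87 on replicate 2, and 10.67 and 10.56 with treatment. In IM-9 it read 11.02 and 10.80, then 11.48 and 11.44. The difference was 1.45 (SE 0.292, limma adjusted p = 0.00532), called in all 8 omissions, and 0.81 without U266 buffer replicate 1, with an adjusted p of at most 0.0364 over the omissions. PLEKHF1, an endosomal adaptor, read 10.89 and 9.99 in U266 with buffer and 9.72 and 9.55 with treatment, and was at 1.53 (adjusted p = 0.00562), lost without that array or IM-9 buffer replicate 2 (adjusted p up to 0.0516). TOB1, an antiproliferative gene, read 11.65 on the same array and 10.91 to 10.97 on the other U266 arrays, and was at 1.11 (adjusted p = 0.0215), lost in 5 omissions. RGS1, a regulator of G protein signalling, and the phosphatase gene CDC14B, both named after their values were seen, were at 1.35 and 1.79 and not called (adjusted p = 0.152 and 0.219), with U266 buffer levels of 11.98 and 9.47 for RGS1 and 11.79 and 10.19 for CDC14B. The protease gene ADAM19 (1.16, adjusted p = 0.000582), the lymphoid GTPase gene RHOH (1.05, adjusted p = 0.00117) and the retinaldehyde reductase gene DHRS3 (0.98, adjusted p = 1.29e-05, below detection in U266) kept their calls in all omissions.

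Most calls for the line difference came at 24 h. At 1, 3 and 9 h limma called 10, 0 and 2 genes for it (0.0867%, 0% and 0.0173% of those tested). The numbers with an unadjusted p under 0.05 were 1578, 334 and 446, against 2503 at 24 h. All 10 at 1 h were negative, and differences of more than 1 log2 unit were seen in 14 genes at 1 h, 2 at 3 h, 0 at 9 h and 18 at 24 h. The 10 were CPEB4 (-1.13), IL12B (-0.88), ANAPC7 (-0.73), GNL3L (-0.70), SLC25A47 (-0.66), AGT (-0.55), MIS18A (-0.53), TMOD3 (-0.49), CCNDBP1 (-0.33) and RNF11 (-0.32), with limma adjusted p values of 0.0157 to 0.0425. Of these TMOD3 was also called at 24 h, there with a positive difference of 0.35 (adjusted p = 0.0141). Array weights raised the count at 1 h to 57. TP53I3 was at -0.09 at 9 h, DDB2 at 0.08, GADD45A at -0.15, PHLDA3 at 0.23 and HSPA1B at -0.12, none of them called. The calls at 9 h were ABCA1, the cholesterol exporter, at 0.61 (adjusted p = 0.0378, the 1 positive call, 0.00867%), and 1 probe with no gene name, the 1 negative call (0.00867%). Of the genes called at 24 h, 84 of the 275 positive (30.5%) and 139 of the 287 negative ones (48.4%) had the same sign at 9 h, on other arrays, beside 42.1% and 43.4% of all genes with a positive or negative difference at 24 h.

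**Figure D4:**
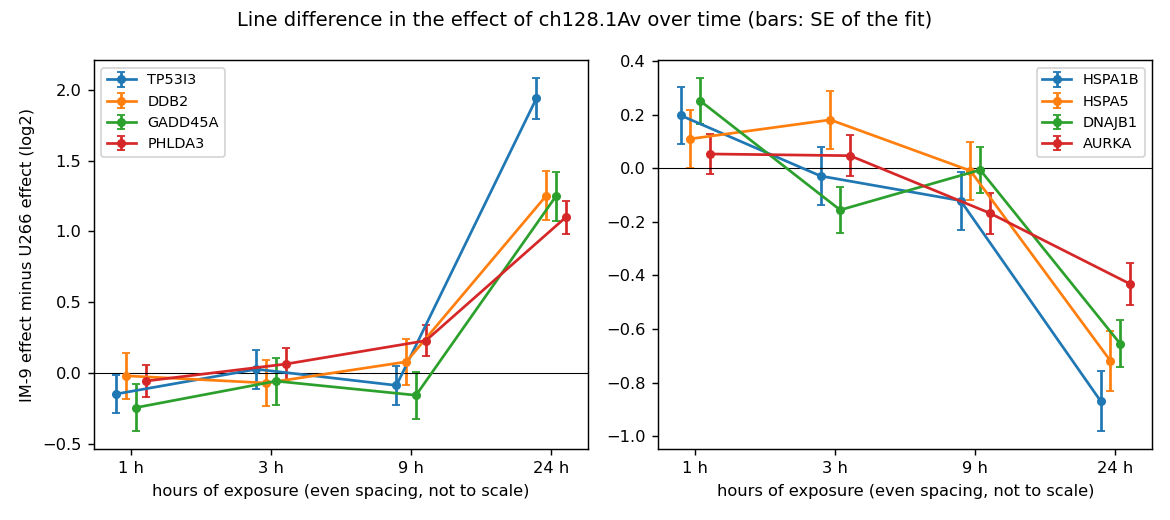
Line difference in the ch128.1Av effect (IM-9 minus U266, log2) at 1, 3, 9 and 24 h for 4 p53 genes (left) and for 3 chaperone genes and AURKA (right); points are fitted values, bars 1 SE, and the panels have different vertical scales. TP53I3 goes from -0.09 at 9 h to 1.94 at 24 h, and HSPA1B from -0.12 to -0.87.

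The number of calls also depended on the scaling. With arrays scaled to equal medians after background correction, 2 positive and 10 negative genes were called, 2 and 8 of them among those above, and the median change of all genes in IM-9 was -0.15. Under that scaling 1 p53 gene and 0 genes of the G2/M, heat shock, proteasome, interferon, MHC, NF-kB and chemokine lists were called. The median differences of the p53, G2/M and heat shock lists were then 0.17, -0.46 and -0.26, beside -0.08 for all genes, and 6 of the 26 list medians changed sign. With array brightness as a covariate there were 90 and 81, of which 81 and 76 were among those above, 10 of the 12 p53 genes included. A fit of the 8 arrays alone left 4 residual degrees of freedom and called 0 genes by limma, while 1633 had an unadjusted p under 0.05.

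**Figure D5:**
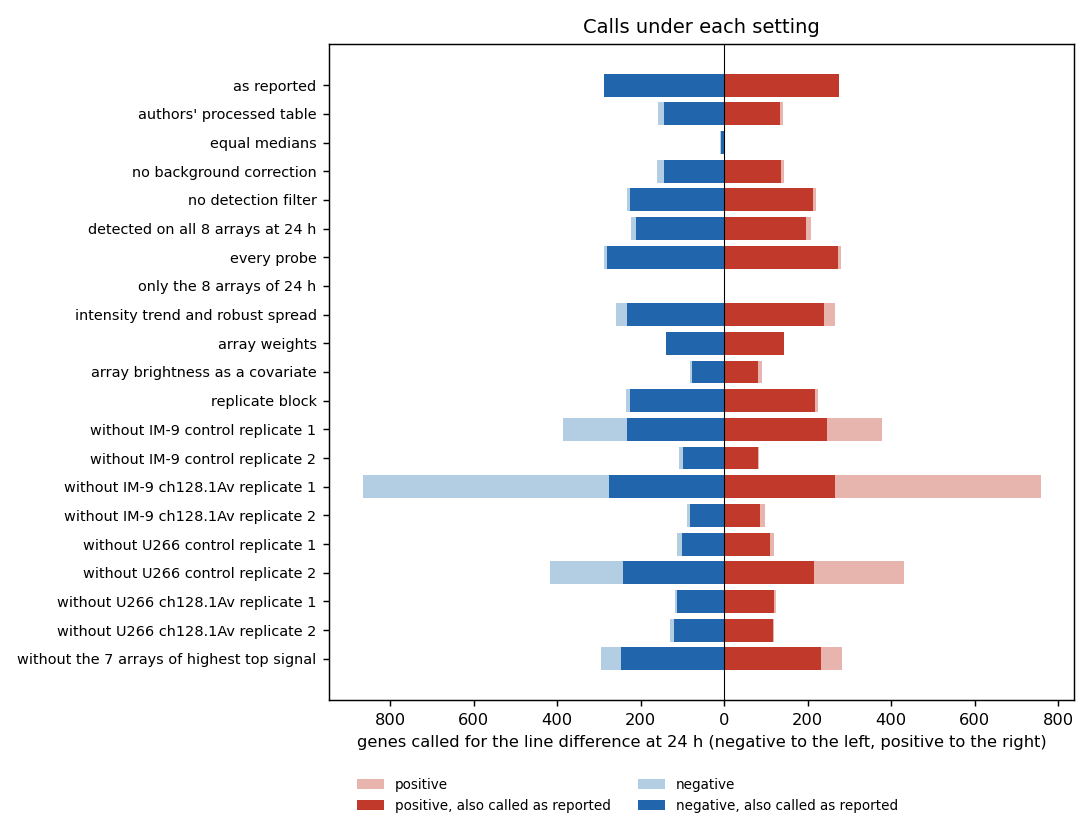
Genes called for the line difference at 24 h under each way of processing the arrays and with each array left out, negative calls to the left and positive ones to the right; the darker part was also called as reported (275 and 287). Counts run from 0 with the 8 arrays of 24 h alone to 758 and 865 without IM-9 treated replicate 1.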

How the data were processed

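RNA from 39 samples of IM-9 (19) and U266 (20) was read on Illumina BeadChips. Per the file headers the deposited values are raw probe intensities with a detection score, a fraction from 0 to 1, from which a detection p was taken as 1 minus the score. The authors also deposited a processed table, used as an alternative on the log2 scale; BeadStudio is named in the submitters' processing notes, and a version is not given in the sources used here. From the raw intensities, neqc in limma 3.58.1 (R 4.3.3, Python 3.11.15 for summaries) corrected background, added an offset of 16, quantile-normalized and took log2. Of 20589 probes, 12080 were detected (p under 0.01) on 2 or more arrays, and the brightest probe stood for each of 11538 genes (10399 with a symbol; 520 had several probes). A further 78 columns were not used.

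One limma model of 18 group means over 39 arrays (21 residual degrees of freedom) gave every contrast, with moderated two-sided tests and Benjamini-Hochberg adjustment, and was tested on simulated data. Arrays have no counting depth, and 2 per group limit the precision. Genes were named by rule: a few fixed genes, up to 12 largest called and non-overlapping in each direction, up to 4 of lowest p in each list, and those called in U266. Not every gene picked by this rule is described above, and CUTC, NREP, TAF5 and PEX26 are among those left out. The genes and lists were chosen with earlier results of these data known. Alternatives changed the scaling, background, filter, probe choice, arrays and model.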

Additional observations from a re-analysis of the deposited data

Results flagged for a closer look

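The response to ch128.1Av at 24 h differed between IM-9 and U266, by the interaction tested in limma, in 275 genes with a positive and 287 with a negative difference. For 77 of the called genes named above the differences follow on the log2 scale. Other called genes named above, such as CD63 and TRIM21, are not repeated. Among the genes listed here, the largest positive differences were those of TP53I3 (1.94), PLEKHF1 (1.53), TXNIP (1.45), GADD45A (1.25) and DDB2 (1.25). ADAM19 (1.16), TOB1 (1.11), PHLDA3 (1.1) and RHOH (1.05) came after them. Next came CCL3L3 (1.03), DHRS3 (0.984), APOBEC3G (0.975), TP53INP1 (0.9), IER5 (0.802), TNFAIP3 (0.784), ID3 (0.767), PRDM1 (0.757) and CDKN1A (0.741). Smaller positive values were found for CCL3 (0.72), FAS (0.655), HLA-DQB1 (0.645), PFKFB3 (0.638), CCR7 (0.606), MT2A (0.6), CFLAR (0.595), DUSP4 (0.585) and TRIM22 (0.571). Below these lay ISCU (0.565), SOCS1 (0.549), TIGAR (0.547), EI24 (0.513), IFI35 (0.508), HERC5 (0.491), ATF5 (0.468), TAP1 (0.453) and ALDOA (0.452). They were followed by PCBP2 (0.384), HSP90B1 (0.371), XPC (0.352), TNFRSF10B (0.346), TJP1 (0.346), CXCL10 (0.322), VIM (0.316), GDF15 (0.307) and TYMS (0.215).

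Among the genes listed here, the largest negative differences were those of KIF15 (-0.977), CCNF (-0.925), ENOPH1 (-0.871), HSPA1B (-0.868) and RRP15 (-0.85). RPS6KB1 (-0.838), HSPA5 (-0.718), KIF11 (-0.713) and CR2 (-0.679) came after them. Next in size came INSIG1 (-0.67), DNAJB1 (-0.655), PSME3 (-0.581), MCM6 (-0.568), PTTG1 (-0.556), HMGCS1 (-0.547), RARS1 (-0.537), PSMA3 (-0.522) and SLC11A2 (-0.502). Smaller negative values were found for CIAO1 (-0.459), AURKA (-0.431), AURKB (-0.42), HSPA8 (-0.41), WDR12 (-0.393), EIF2S2 (-0.389), HLA-DPB1 (-0.385), CEBPG (-0.383) and NDUFS8 (-0.371). Less negative were PRC1 (-0.358), POLR1C (-0.357), H2AZ1 (-0.356), FTL (-0.301) and NKG7 (-0.178).

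FTL held a single value in U266, where it was the brightest probe, and its difference cannot show a U266 change. Groups of 2 arrays are too small for a test of single outlying arrays.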

How the results depend on the processing

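With each array of 24 h left out, positive calls ran from 83 to 758, negative calls from 89 to 865, IM-9 calls from 203 to 1112 higher and from 196 to 1226 lower, U266 calls from 0 to 415, and line differences from 0 to 3 at 9 h, 0 to 0 at 3 h and 7 to 15 at 1 h. The authors' processed table gave 142 and 158 calls at 24 h, 1 in U266, 0 at 9 h and 6 at 1 h, and no background correction gave 143 and 160, 1, 0 and 6. Equal medians gave 2 and 10, 61 higher in IM-9, 0 in U266, 0 at 9 h and 0 at 1 h. Requiring detection on all 8 arrays gave 1 call in U266, 0 at 9 h and 2 at 1 h, with fewer genes tested. The 8 arrays alone gave 0 and 0, 77 higher and 61 lower in IM-9 and 0 in U266, with 4 residual degrees of freedom. An intensity trend with robust spread gave 20 at 1 h. Array weights gave 143 and 139, 314 and 348 in IM-9, 11 at 9 h and 57 at 1 h. Brightness as a covariate gave 90 and 81, 294 and 337 in IM-9, 5 at 9 h and 2 at 1 h. Without the 7 U266 arrays of highest top signal, a choice made after seeing the data, there were 283 and 296. That choice left no treated U266 array of 1 h and no U266 buffer array of 9 h, so neither line difference could be fitted. Apart from the constructions named, the cause was not tested.

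Deviations of replicate 1 from the group mean correlated from -0.467 to 0.144 between groups, over genes that are not independent replicates. The value of -0.467 was between IM-9 buffer and IM-9 treated arrays, where arrays of unlike number thus deviated alike. A block of arrays with unlike numbers was not run. With line and replicate number as a replicate block there were 225 and 235 calls, 217 and 225 of them as reported, and 1 at 9 h.

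Single genes that changed sign with equal medians were MYC (-0.21), CCNE1 (-0.00817), FTL (0.15), CXCL10 (-0.0124), NDUFB8 (0.000476), PSMB1 (0.0452), FCRLA (-0.11) and H2AZ1 (0.23). BNIP3 turned to 0.29 with brightness, 0.03 without IM-9 buffer replicate 2, 0.07 without IM-9 treated replicate 2, 0.30 without U266 buffer replicate 1 and 0.09 without U266 treated replicate 2, and HBB to 0.02 without U266 buffer replicate 1. Over the omissions BNIP3 ran from -0.409 to 0.296 and HBB from -0.228 to 0.02. Of 85 called genes named by rule, 28 kept the call without each array in turn, 53 in the authors' table, 33 with brightness and 1 with equal medians. Slide as a block was not run, since the headers used here give no slide.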

Other observations

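Across the 11538 genes, which are not independent replicates, the line difference at 24 h and that at 9 h, measured on other arrays, correlated at -0.314.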
